A study of Mus musculus with 24 samples.

Results

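Ribosome-bound RNA and total RNA were compared in bone-marrow-derived macrophages of control mice kept at 20% O2. Translating ribosome affinity purification (TRAP) pulls down ribosomes through a tagged ribosomal protein and recovers the RNA attached to them. Of the 24 libraries of the series, 6 enter this comparison: TRAP RNA of 3 mice, which are named HET-97, HET-102 or HET-129, and total RNA of the same animals. Genes were matched by Ensembl identifier between the TRAP table and the total RNA table, and 11410 of 52636 genes reached 1 TPM (reads scaled to gene length and to a fixed library total) in at least 3 of these 6 libraries.

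The control mice were Csf1r-iCre.HuR+/fl, so they too carried a Cre recombinase driven by Csf1r and 1 floxed copy of Elavl1, the gene of the RNA-binding protein HuR. All mice expressed ribosomal protein L10a fused to EGFP, and the labels name no promoter for that tag. The mice were 8 to 12 weeks old, and their marrow was cultured for 6 days in L-cell conditioned medium. The cells were then held for 18 h at 20% O2 with 5% CO2 (normoxia). Other libraries came from the same control mice at 1% O2 (hypoxia) and from 3 mice labelled knockout (Csf1r-iCre.HuRfl/fl) at both oxygen levels. Each lysate, made with 1% NP-40 and 30 mM DHPC, was precleared by centrifugation before it was divided into TRAP and total RNA. "Total RNA" is therefore the RNA of a precleared detergent lysate, in polyadenylated-RNA libraries.

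Messenger RNAs are found on cytosolic ribosomes in unequal proportion. Ribosomal protein mRNAs begin with a short run of pyrimidines that couples their translation to growth signals. Ferritin mRNAs carry an iron-responsive element in the 5′ untranslated region, where iron regulatory proteins block initiation. The RNAs of the mitochondrial genome are read by ribosomes inside the organelle, which contain no L10a. Many long noncoding RNAs stay in the nucleus, while the host transcripts of small nucleolar RNAs (snoRNAs) reach the cytoplasm after their introns have been removed.

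The TRAP libraries of HET-97, HET-102 and HET-129 held 11108, 10884 and 9823 genes at 1 TPM or more, against 11539, 11691 and 11491 in the total RNA libraries. The HET-129 TRAP library stood lowest, with a mean correlation of 0.918 with the other TRAP libraries, where HET-97 and HET-102 reached 0.941 and 0.945. Mouse HET-129 also differed in both fractions. Its chemokine gene Ccl5 stood at 5112 TPM in TRAP RNA, against 16.6 and 14.2 TPM in the other TRAP libraries, and at 3709 TPM in total RNA, against 9.96 and 9.87 TPM in the other total RNA libraries. Results are therefore also given without this mouse. All 20 macrophage markers passed the filter, and summed to 37293 to 40773 TPM in TRAP RNA and to 43407 to 47524 TPM in total RNA. Markers of other cells were low. The 9 fibroblast and stromal markers summed to 0.496 to 2.85 TPM in TRAP RNA, against 3.68 to 36.2 TPM in total RNA. The 11 neutrophil markers summed to 20.8 to 27.9 TPM, against 31.4 to 58.7 TPM, with Camp, Cxcr2, Elane, Ly6g and Retnlg at 0 in all 6 libraries. The 12 lymphocyte markers summed to 3.65 to 4.05 TPM, against 4.09 to 7.29 TPM, the 8 dendritic cell markers to 2.37 to 7.99 TPM, against 6.43 to 15.1 TPM, and the 8 erythroid markers to at most 0.363 TPM, against at most 0.459 TPM. The fibroblast sums moved with the fraction, and their part in the results below was not tested.

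A small number of abundant RNA classes, most of them mRNAs, took a larger part of TRAP RNA, and most other genes were lower there on the deposited scale. The difference between TRAP and total RNA of a gene is given as log2(TPM + 1) in TRAP RNA minus that in total RNA, from a linear model with each lysate as a block. Of 11410 genes, 671 were higher in TRAP RNA (5.88%) and 6026 were lower (52.8%) at an adjusted p under 0.05. The median gene lay 0.66 lower in TRAP RNA, by 0.54 in HET-97, 0.60 in HET-102 and 0.83 in HET-129. The fractions come from separate deposited tables of TPM values, which sum to a fixed total in each library, so each gene was also read against that median. Relative to the median gene, 2323 genes were higher (20.4%) and 1956 were lower (17.1%). The share of calls that were higher was 10.02% on the deposited scale and 54.3% relative to the median gene, and 31 genes were called lower on the deposited scale but higher relative to the median gene. Without HET-129, the counts were 486 and 4436 on the deposited scale, and 1469 and 1021 relative to the median gene. Without the lysate block they were 320 and 4010 on the deposited scale, and 1289 and 783 relative to the median gene. From the 6 libraries alone, with the block, 1458 genes were higher and 1012 lower relative to the median gene. The all-gene shares of 5.88% and 52.8% on the deposited scale, and of 20.4% and 17.1% relative to the median gene, are the background for the counts of each list below. Without HET-129 these shares were 4.26%, 38.9%, 12.9% and 8.95%. In 579 genes (5.07%) all 3 TRAP libraries stood above all 3 total RNA libraries, and in 5284 genes (46.3%) all stood below.

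**Figure D1:**
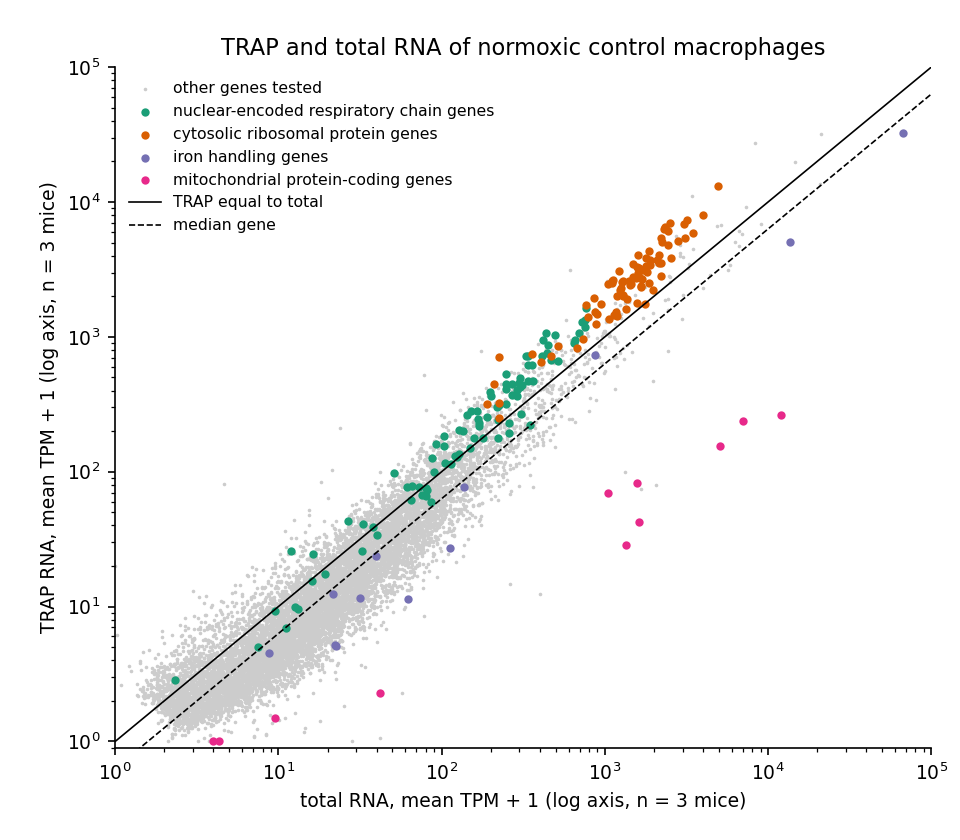
Mean TPM + 1 of each of the 11410 genes in TRAP RNA (vertical) against total RNA (horizontal), both on log axes, n = 3 normoxic control mice, with the line of equality (solid) and the median gene (dashed). Cytosolic ribosomal protein genes lie above both lines, and mitochondrial protein-coding genes lie far below them.

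RNAs encoded by mitochondrial DNA had the lowest median of the 23 gene lists plotted by mouse. They took 0.0624% of all TPM in HET-97, 0.218% in HET-102 and 0.0303% in HET-129 in TRAP RNA, against 3.89%, 3.72% and 2.56% in total RNA. No TRAP library came near a total RNA library, and the exact permutation test over the 6 libraries gave p = 0.1, the smallest value that 3 against 3 allows. Of the 13 protein-coding mitochondrial genes, 11 passed the filter. On the deposited scale 10 were lower and none higher, with a median difference of -4.66. Against the median gene, 9 were lower and none higher, with a median of -4.0, and the same counts held without HET-129. The medians of the single mice were -4.74, -3.41 and -4.20.

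mt-Co1 (ENSMUSG00000064351.1, mitochondrial chromosome, 5328 to 6872 in GRCm38, plus strand) encodes a core subunit of cytochrome c oxidase. It stood at 206, 551 and 31 TPM in TRAP RNA, against 16711, 11095 and 7990.1 TPM in total RNA. All TRAP libraries lay below all total RNA libraries, the lowest being HET-129, and the difference was -6.21 ± 0.53 on the log2 scale (SE, adjusted p = 4.89e-05). mt-Cytb, cytochrome b of complex III, had 136, 537 and 33.0 TPM in TRAP RNA and 7758, 9070.4 and 4162 TPM in total RNA, a difference of -5.61 ± 0.45 (adjusted p = 4.89e-05). The complex I subunits mt-Nd5, mt-Nd2 and mt-Nd1 differed by -5.94, -5.74 and -5.46. mt-Nd6, read from the other strand and overlapping mt-Nd5, differed by -4.66 ± 0.79. mt-Co2 stood at 0.312, 2.77 and 0.734 TPM in TRAP RNA, against 35.4, 50.5 and 36.6 TPM in total RNA. Nuclear copies of mitochondrial genes can share reads with mt-Co2, so its level is uncertain. mt-Co3, mt-Atp8 and mt-Nd3 were lower still, with means of 8.56, 3.34 and 3.00 TPM in total RNA and 0.499, 0 and 0 TPM in TRAP RNA. At such levels the 1 TPM added before the log2 bounds the size of their differences, which enter the counts and medians above. mt-Nd4, the member that passed neither test, had 13.2, 171 and 20.7 TPM in TRAP RNA and 398, 2757 and 0 TPM in total RNA. Its difference of -1.46 ± 1.33 had an adjusted p of 0.361, and the HET-129 total RNA library alone lists it at 0.

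The noncoding mitochondrial RNAs were lower too. The ribosomal RNAs mt-Rnr1 and mt-Rnr2 had 26.2, 136 and 60.0 TPM and 44.6, 144 and 46.8 TPM in TRAP RNA, against 971, 1562 and 2433 TPM and 1415, 2027 and 2733 TPM in total RNA. Their differences were -4.66 and -4.87. The leucine transfer RNA mt-Tl1 differed by -4.99 and the tryptophan transfer RNA mt-Tw by -5.26, and mt-Tw overlaps mt-Nd2 on the same strand. All 6 mitochondrial transfer RNAs and both mitochondrial ribosomal RNAs that passed the filter were lower on the deposited scale.

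mRNAs of the cytosolic ribosome had the highest median of those 23 lists. Together they took 25.4%, 28.2% and 22.5% of all TPM in TRAP RNA of HET-97, HET-102 and HET-129, against 12.2%, 16.4% and 11% in total RNA, means of 25.4% ± 2.88 and 13.2% ± 2.83 (SD, n = 3 each, exact permutation p = 0.1). All 83 listed genes passed the filter. On the deposited scale 76 were higher and none lower, with a median difference of 0.85. In 62 of the 83, all TRAP libraries stood above all total RNA libraries, which held for 5.07% of all genes. All 83 were higher relative to the median gene, with medians of 1.54, 1.34 and 1.67 in the single mice. Without HET-129 the counts were again 76 and 83.

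The start regions of 6 transcripts that were higher in TRAP RNA are printed because their first bases hold the kind of pyrimidine run known from ribosomal protein mRNAs. Each line gives 15 bases before the annotated start and 15 from it on, 5′ to 3′ on the gene's strand, with a C followed by 4 pyrimidines (C or T) at the start in capitals. The sequences are RefSeq's for GRCm38.p6, and Snhg8 and Gas5 are snoRNA hosts described further on.
Rps21: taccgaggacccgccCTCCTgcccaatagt
Rpl38: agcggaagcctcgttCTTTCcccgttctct
Rplp2: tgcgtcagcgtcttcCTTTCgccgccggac
Rpl35a: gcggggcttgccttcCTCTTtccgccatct
Snhg8: gcaccgttcagaagtCTCTTtggctgcgat
Gas5: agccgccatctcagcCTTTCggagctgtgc
They lie at chr2:180257364-180257393 (plus), chr11:114668565-114668594 (plus), chr7:141447636-141447665 (plus), chr16:33056467-33056496 (plus), chr3:123508322-123508351 (minus) and chr1:161035151-161035180 (plus), in the order of the lines. This run stood exactly at the annotated start in 15 of the 62 ribosomal protein genes with a matched promoter (24.2%). A gene counted if any of its annotated starts held the run. The share was 17.6% of 17 long noncoding and host genes and 5.56% of 72 respiratory chain genes. It was 2.92% of 8517 genes tested and 3.01% of all 27025 gene symbols with a promoter. With the run allowed within 5 bases of the start, it was found in 50% of the ribosomal protein genes, 24.1% of genes tested and 21.2% of all those gene symbols. Among protein-coding genes outside the ribosomal proteins, 218 genes with the exact run had a median of -0.01 relative to the median gene, against -0.07 for 7963 genes without it. Among ribosomal proteins the medians were 1.75 for 15 genes with the run and 1.42 for 47 without it. Rps21, Rpl38, Rplp2, Rpl35a and the host genes were picked for display after their values were seen.

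Among small-subunit proteins, Rps20 (ENSMUSG00000028234.6, chromosome 4, 3831334 to 3835665, minus strand) moved most relative to the median gene. It had 670.3, 745 and 724 TPM in TRAP RNA, against 201, 275 and 197 TPM in total RNA. The 2 fractions were far apart in every mouse, and the difference was 1.68 ± 0.16 (adjusted p = 5.07e-05), or 2.34 ± 0.17 relative to the median gene. Rps21 had 5639.8, 6761 and 7301 TPM in TRAP RNA and 1849.7, 3144 and 2024 TPM in total RNA, a difference of 1.52 ± 0.14. Rps28 had 5937, 6935 and 6027 TPM in TRAP RNA and 1978, 2924 and 1968 TPM in total RNA, a difference of 1.48 ± 0.11. Of 33 small-subunit genes 32 were higher on the deposited scale, with a median of 1.00. The exception, Rps2, had 1946, 2106 and 1319 TPM in TRAP RNA and 1473, 2044 and 1199 TPM in total RNA (0.19 ± 0.15, adjusted p = 0.281), but passed relative to the median gene (0.85 ± 0.18, adjusted p = 0.00344). Rps27rt, a copy related to Rps27, had 7.07, 8.21 and 7.24 TPM in TRAP RNA and 1.98, 2.21 and 1.96 TPM in total RNA (1.48 ± 0.38, adjusted p = 0.00616).

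Of 49 large-subunit genes 43 were higher on the deposited scale, with a median of 0.81. Rpl37a had 5613, 7074 and 6573 TPM in TRAP RNA and 1879, 2988 and 2117 TPM in total RNA, with no overlap (1.49 ± 0.12, adjusted p = 4.89e-05). Rpl38 had 5427, 6180.2 and 9415 TPM in TRAP RNA and 1940.5, 3097 and 2459 TPM in total RNA (1.47 ± 0.15). At the low end, Rpl4 had 2096, 2045 and 1115 TPM in TRAP RNA and 1881, 2166 and 1254 TPM in total RNA. Its fractions overlapped (-0.03 ± 0.11, adjusted p = 0.813), and it stood 0.62 ± 0.13 above the median gene (adjusted p = 0.00404). Rpl4, Rpl38 and Rps2 were chosen after their values were seen. Rpl10a, the gene of the tagged protein (chromosome 17, 28328471 to 28331033, plus strand), had 3119, 2624 and 1401 TPM in TRAP RNA and 1961, 1982 and 1063 TPM in total RNA (0.49 ± 0.10, adjusted p = 0.00208). These values cannot tell its own transcript from that of the tagged copy, and without the lysate block the call was lost.

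The ribosomal protein genes have many processed pseudogenes, and reads shared with them leave the level of each gene uncertain. Of 509 processed pseudogenes of any gene that passed the filter, 125 were higher and 35 lower on the deposited scale, and 307 were higher and 4 lower relative to the median gene.

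Long noncoding RNAs and snoRNA hosts split in 2 directions. Of 39 listed, 25 passed the filter. On the deposited scale 9 were higher and 7 lower. Against the median gene, 11 were higher and 4 lower, and 9 and 3 without HET-129. The 9 genes on the higher side of the deposited scale were Gas5, Zfas1, Epb41l4aos, Snhg1, Snhg3, Snhg6, Snhg8, Snhg12 and Snhg15, most of them known as snoRNA hosts. Snhg8 (chromosome 3, 123507552 to 123508404, minus strand) had 213, 348 and 299.999 TPM in TRAP RNA, against 97.1, 175 and 116 TPM in total RNA. The TRAP libraries were all above the total RNA libraries, by 1.16 ± 0.15 (adjusted p = 0.000151). Gas5 had 541, 511 and 589 TPM in TRAP RNA and 280.2, 366 and 362 TPM in total RNA (0.71 ± 0.12, adjusted p = 0.000618). Zfas1 had 110.4, 158 and 371 TPM in TRAP RNA and 53.9, 95.6 and 166 TPM in total RNA (0.97 ± 0.12, adjusted p = 0.000104), with overlap between mice but a higher TRAP value in each lysate. Gas5 and Zfas1 were chosen after their values were seen.

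The lower side held, among others, RNAs known for nuclear or structural roles. Rpph1, the RNA of ribonuclease P, had 2.91, 3.83 and 1.39 TPM in TRAP RNA and 14.7, 25.8 and 24.9 TPM in total RNA (-2.64 ± 0.41, adjusted p = 0.000361). It overlaps Ccnb1ip1 on the same strand. Tug1 had 4.72, 3.59 and 2.38 TPM in TRAP RNA and 20.4, 14.3 and 17.2 TPM in total RNA (-2.02 ± 0.27, adjusted p = 0.000167). Rmrp, the RNA of the ribonuclease MRP, differed by -2.0. How Rpph1 and Rmrp came to be in libraries of polyadenylated RNA was not tested. The nuclear RNA Malat1 had 89.3, 28.2 and 112 TPM in TRAP RNA and 138, 195 and 751 TPM in total RNA, all TRAP values lower (-2.04 ± 0.57, adjusted p = 0.00956). The Malat1 call was lost without HET-102, without HET-129 and relative to the median gene (-1.38, adjusted p = 0.0873). Neat1, of the nuclear paraspeckles, had 40.3, 1.32 and 4.81 TPM in TRAP RNA and 30.8, 27.5 and 80.8 TPM in total RNA. Its TRAP value was higher in HET-97 and lower in the other mice (-2.35 ± 0.82, adjusted p = 0.0277, and 0.119 relative to the median gene). Neat1 was chosen after its values were seen.

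Among the genes with the largest higher values were 3 genes of 5S ribosomal RNA and a microRNA gene. The 5S ribosomal RNA gene n-R5s194 had 49.0, 137 and 447 TPM in TRAP RNA and 2.04, 44.3 and 22.7 TPM in total RNA, with a higher TRAP value in each lysate and a wide spread between mice (3.30 ± 0.47, adjusted p = 0.000223). n-R5s115 had 16.3, 59.7 and 174 TPM in TRAP RNA and 1.03, 20.4 and 30.0 TPM in total RNA (2.36), and n-R5s156 had 2.65, 12.2 and 21.0 TPM in TRAP RNA and 0.835, 2.86 and 2.28 TPM in total RNA (1.84). The n-R5s156 call was lost without HET-129. Mir6236, annotated as a microRNA gene, had 5687, 12414 and 15328 TPM in TRAP RNA and 3527, 3891 and 2809 TPM in total RNA, with no overlap (1.60 ± 0.29, adjusted p = 0.000843). Of 6 annotated ribosomal RNA genes tested, 4 were higher and none lower on the deposited scale. Of 38 microRNA genes, 12 were higher and 4 lower. All annotated microRNA genes together took 3.29%, 5.81% and 6.38% of all TPM in TRAP RNA of HET-97, HET-102 and HET-129, against 2.10%, 2.27% and 2.39% in total RNA. Other short RNA classes had few calls on that scale, where 5.88% of all genes were higher and 52.8% lower. Among 9 small nuclear RNA genes none were higher and 4 lower. The 10 genes annotated as miscellaneous RNA had 1 higher and 4 lower. The 15 snoRNA genes had 1 higher and 1 lower, and none of 4 small Cajal body RNA genes was called. Medians relative to the median gene were -0.39 for small nuclear, -0.96 for miscellaneous, 0.12 for snoRNA and 1.12 for small Cajal body RNA genes. Copies of 5S genes share sequence, so their levels are uncertain. The libraries are of polyadenylated RNA, and how RNAs of these short classes came to be in them was not tested.

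Nuclear genes of the respiratory chain moved opposite to the mitochondrial ones. Of 108 listed genes 91 passed the filter. In deposited TPM, 46 were higher and 6 lower, with a median of 0.45. Against the median gene, 77 were higher and none lower, with a median of 1.10 and with 90 of 91 above 0. Without HET-129, 63 were higher and none lower relative to the median gene, and 42 were higher and 2 lower on the deposited scale. Their share of all TPM was 3.05%, 3.02% and 3.53% in TRAP RNA, against 1.87%, 2.24% and 2.10% in total RNA. Genes were also grouped by complex from their names. The complex I group includes Ndufaf assembly factors, and the ATP synthase group includes the processed pseudogene Atp5l2-ps. In these groups 38 of 46 genes of complex I, 8 of 9 of complex III, 13 of 13 of complex IV and 14 of 18 of ATP synthase were higher relative to the median gene. Their medians were 1.01, 1.02, 1.21 and 1.15. Of the 4 genes of complex II, 3 were higher relative to the median gene and 2 were lower on the deposited scale, with a relative median of 0.48.

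Uqcr10, a small subunit of complex III (chromosome 11, 4701973 to 4704342, minus strand), had 1062, 976 and 1188 TPM in TRAP RNA, against 349, 531 and 417 TPM in total RNA. The fractions did not overlap (1.33 ± 0.19, adjusted p = 0.000242). Cox7a1 of complex IV had 28.4, 22.7 and 23.5 TPM in TRAP RNA and 11.5, 16.2 and 4.84 TPM in total RNA (1.254 ± 0.39, adjusted p = 0.0159), and this call was lost without HET-97 and without HET-129. Atp5k and Atp5e, small subunits of ATP synthase, had 779, 871 and 1199 TPM and 1499.6, 1425 and 1985 TPM in TRAP RNA, against 327, 493 and 438 TPM and 618, 919 and 757 TPM in total RNA. They differed by 1.17 (adjusted p = 0.00017) and 1.10 (adjusted p = 0.00045). Sdha, the catalytic subunit of complex II, chosen after its values were seen, had 73.1, 58.1 and 45.0 TPM in TRAP RNA and 113, 70.3 and 71.8 TPM in total RNA. It was lower on the deposited scale (-0.52 ± 0.12, adjusted p = 0.00388) and 0.14 ± 0.11 above the median gene (adjusted p = 0.368).

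Mitochondrial ribosomal proteins, which are made in the cytosol, went the same way with smaller differences. Of 83 listed, 79 passed the filter. In deposited TPM, 24 were higher and 6 lower, and relative to the median gene 57 were higher and none lower, with a median of 0.80. Without HET-129, 42 were higher relative to the median gene, and 16 were higher and 2 lower on the deposited scale. Mrpl52 had 174, 192 and 335 TPM in TRAP RNA and 73.6, 117 and 139 TPM in total RNA (1.07 ± 0.13, adjusted p = 0.000127). Mrpl14 had 132, 144 and 145 TPM in TRAP RNA and 69.8, 49.5 and 95.8 TPM in total RNA (1.01 ± 0.24, adjusted p = 0.00373). Mrpl3 stood on the other side, with 9.94, 7.28 and 4.10 TPM in TRAP RNA and 22, 11.3 and 30.3 TPM in total RNA (-1.42 ± 0.52, adjusted p = 0.0341). The Mrpl3 call was lost relative to the median gene (adjusted p = 0.245) and without HET-97, HET-129 or the labelled knockout mouse KO-281.

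**Figure D2:**
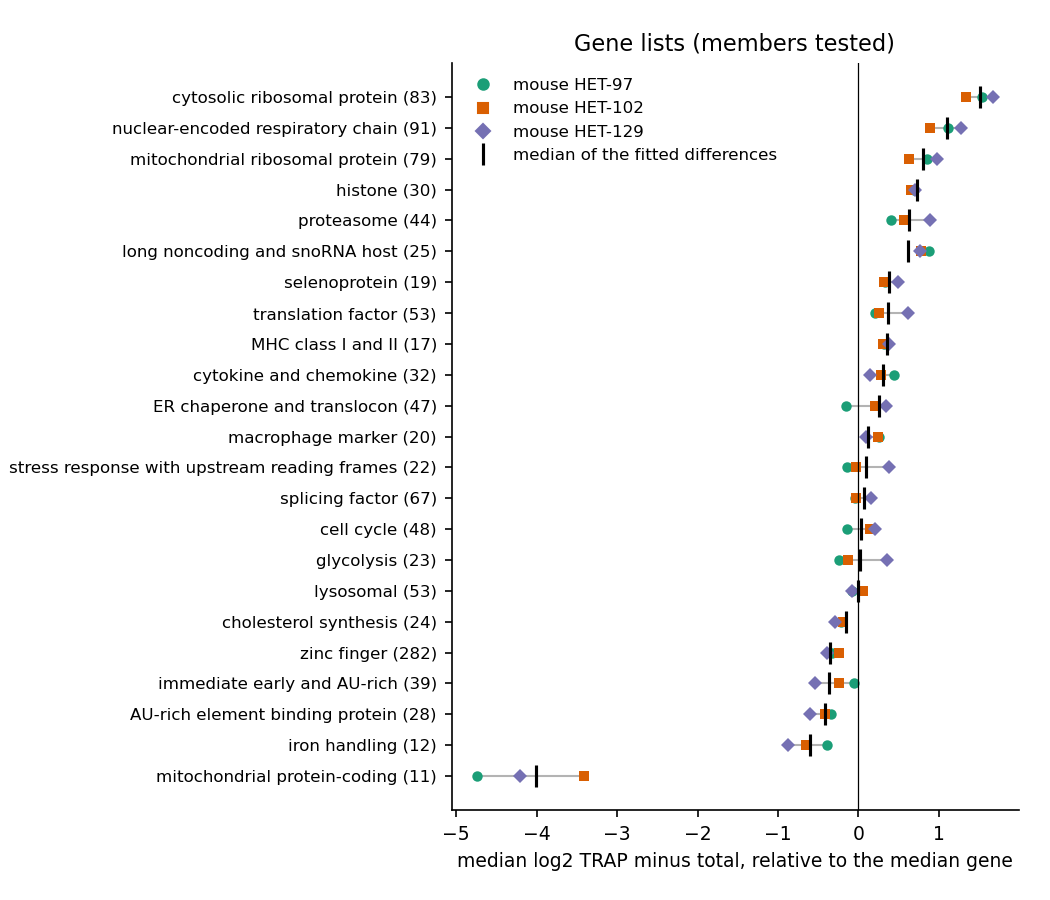
Median log2 difference, TRAP minus total RNA and relative to the median gene, of the tested members of 23 gene lists (rows, with the number tested) in each of 3 normoxic control mice (coloured points) and in the fit (black bars). Cytosolic ribosomal proteins lay between 1.34 and 1.67 in the 3 mice, and mitochondrial protein-coding genes between -4.74 and -3.41.

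Iron-handling genes had a low median in TRAP RNA. Of 14 listed genes 12 passed the filter. In deposited TPM, 10 were lower (83.3%, against 52.8% of all genes) and none higher, with a median of -1.26. In 10 of the 12, all TRAP libraries stood below all total RNA libraries, which held for 46.3% of all genes. Relative to the median gene 5 were lower (41.7%, against 17.1% of all genes) and 1 was higher, with a median of -0.61. Without HET-129, 4 were lower and 1 higher relative to the median gene, and 8 were lower on the deposited scale. The list took 4.99%, 3.55% and 3.00% of all TPM in TRAP RNA, against 7.82%, 7.25% and 9.48% in total RNA (exact permutation p = 0.1).

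Fth1, the ferritin heavy chain (chromosome 19, 9980598 to 9985098, plus strand), had 42836, 29666 and 25139 TPM in TRAP RNA, against 63890.2, 56075 and 80524 TPM in total RNA. No library overlapped (-1.06 ± 0.16, adjusted p = 0.000286), but relative to the median gene the difference of -0.40 had an adjusted p of 0.0629. Ftl1, the ferritin light chain, had 6117, 5134 and 3804 TPM in TRAP RNA and 12991, 15355 and 12662 TPM in total RNA. It was lower on both scales (-1.47 ± 0.18, adjusted p = 0.000128, and -0.81 relative to the median gene, adjusted p = 0.00977). The iron exporter Slc40a1 had 30.3, 29.6 and 19.3 TPM in TRAP RNA and 120.2, 114 and 101 TPM in total RNA (-2.07 ± 0.22, adjusted p = 7.36e-05). The heme oxygenase Hmox1 had 734, 575 and 902 TPM in TRAP RNA and 774, 691 and 1150.1 TPM in total RNA. Its difference of -0.23 had an adjusted p of 0.0822, and relative to the median gene it was higher by 0.42 (adjusted p = 0.0038). Fth1, Ftl1, Slc40a1 and Hmox1 were chosen after their values were seen.

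The transferrin receptor gene Tfrc, whose mRNA carries iron-responsive elements in its 3′ untranslated region, had 17.1, 6.62 and 7.31 TPM in TRAP RNA and 86.9, 39.9 and 57.6 TPM in total RNA. Every TRAP value lay below every total RNA value (-2.51 ± 0.54, adjusted p = 0.00236). Ireb2, an iron regulatory protein, had 5.79, 4.74 and 1.84 TPM in TRAP RNA and 23.3, 18.7 and 22.6 TPM in total RNA (-2.22 ± 0.25, adjusted p = 8.72e-05). The ferritin receptor Ncoa4 differed by -2.18 ± 0.33 (adjusted p = 0.000292). The ferric reductase Steap3 had 25.9, 2.13 and 3.46 TPM in TRAP RNA and 39.9, 24.4 and 27.5 TPM in total RNA (-2.10 ± 0.62, adjusted p = 0.0128), a call lost without HET-102, without HET-129 and relative to the median gene.

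RNA-binding proteins that act on AU-rich elements, the class of HuR itself, were listed together with other genes such as Cnot6l and Pum2. This mixed list had a median of -1.07 on the deposited scale and of -0.42 relative to the median gene. All 28 passed the filter. On the deposited scale 21 were lower (75.0%, against 52.8% of all genes) and none higher, and 15 were lower without HET-129. Relative to the median gene 9 were lower (32.1%, against 17.1% of all genes) and 1 higher, and without HET-129 these counts were 6 and 0. Elavl1 (ENSMUSG00000040028.10, chromosome 8, 4285382 to 4325413, minus strand) had 18.1, 16.8 and 12.2 TPM in TRAP RNA, against 29.9, 30.8 and 35.7 TPM in total RNA. The fractions did not overlap, but the difference of -1.0 ± 0.64 did not pass in the fit to 24 libraries (adjusted p = 0.196). It passed in the limma fit to the 6 normoxic control libraries alone, with the block (adjusted p = 0.02). Relative to the median gene, the difference of -0.35 had an adjusted p of 0.696. In normoxic mice labelled knockout, Elavl1 had 17.4, 17.7 and 0.84 TPM in TRAP RNA and 35.1, 34.8 and 36.1 TPM in total RNA. The total RNA of the mice labelled knockout thus held as much Elavl1 as that of the controls. Gene totals alone cannot check the genotype label. Ccl25 overlaps Elavl1 on the opposite strand. Zfp36l1, which promotes decay of AU-rich mRNAs, had 77.0, 70.0 and 35.3 TPM in TRAP RNA and 219, 177 and 265 TPM in total RNA (-1.90 ± 0.29, adjusted p = 0.000335). The deadenylase subunit gene Cnot6l differed by -2.22 ± 0.28, and Pum2, of the Pumilio family, by -1.84. Celf2 had 20.8, 18.1 and 12.2 TPM in TRAP RNA and 56.6, 63.8 and 69.8 TPM in total RNA (-1.86 ± 0.62, adjusted p = 0.022), and its call was lost when any one of the 3 control mice was left out and relative to the median gene.

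Immediate early genes with short-lived, AU-rich mRNAs had a share of lower calls near that of all genes once read against the median gene. Their median on that scale was still -0.36, and 11 of the 39 tested lay above 0. Of 42 listed 39 passed the filter. In deposited TPM, 28 were lower and none higher, with a median of -1.02, which is 71.8% lower, against 52.8% of all genes. Relative to the median gene 8 were lower (20.5%, against 17.1% of all genes) and 4 higher. Without HET-129, 16 were lower on the deposited scale, and relative to the median gene 3 were lower (7.69%, against 8.95% of all genes) and 3 higher. The AP-1 family member Fosl2 had 17.4, 13.2 and 2.06 TPM in TRAP RNA and 46.9, 33.8 and 33.4 TPM in total RNA (-2.05 ± 0.42, adjusted p = 0.00173). Zfp36l2, a relative of Zfp36l1, had 69.3, 47.2 and 13.4 TPM in TRAP RNA and 162, 128 and 85.4 TPM in total RNA (-1.74). Mafk had 14.4, 12.6 and 0.166 TPM in TRAP RNA and 21.9, 22 and 26.1 TPM in total RNA (-1.96, adjusted p = 0.0122), and its call was lost without HET-129. Ier2, chosen after its values were seen, had 387, 334 and 389 TPM in TRAP RNA and 279, 326 and 369 TPM in total RNA. It did not pass on the deposited scale (0.19 ± 0.11, adjusted p = 0.156) and was higher by 0.85 ± 0.11 relative to the median gene (adjusted p = 0.00025).

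**Figure D3:**
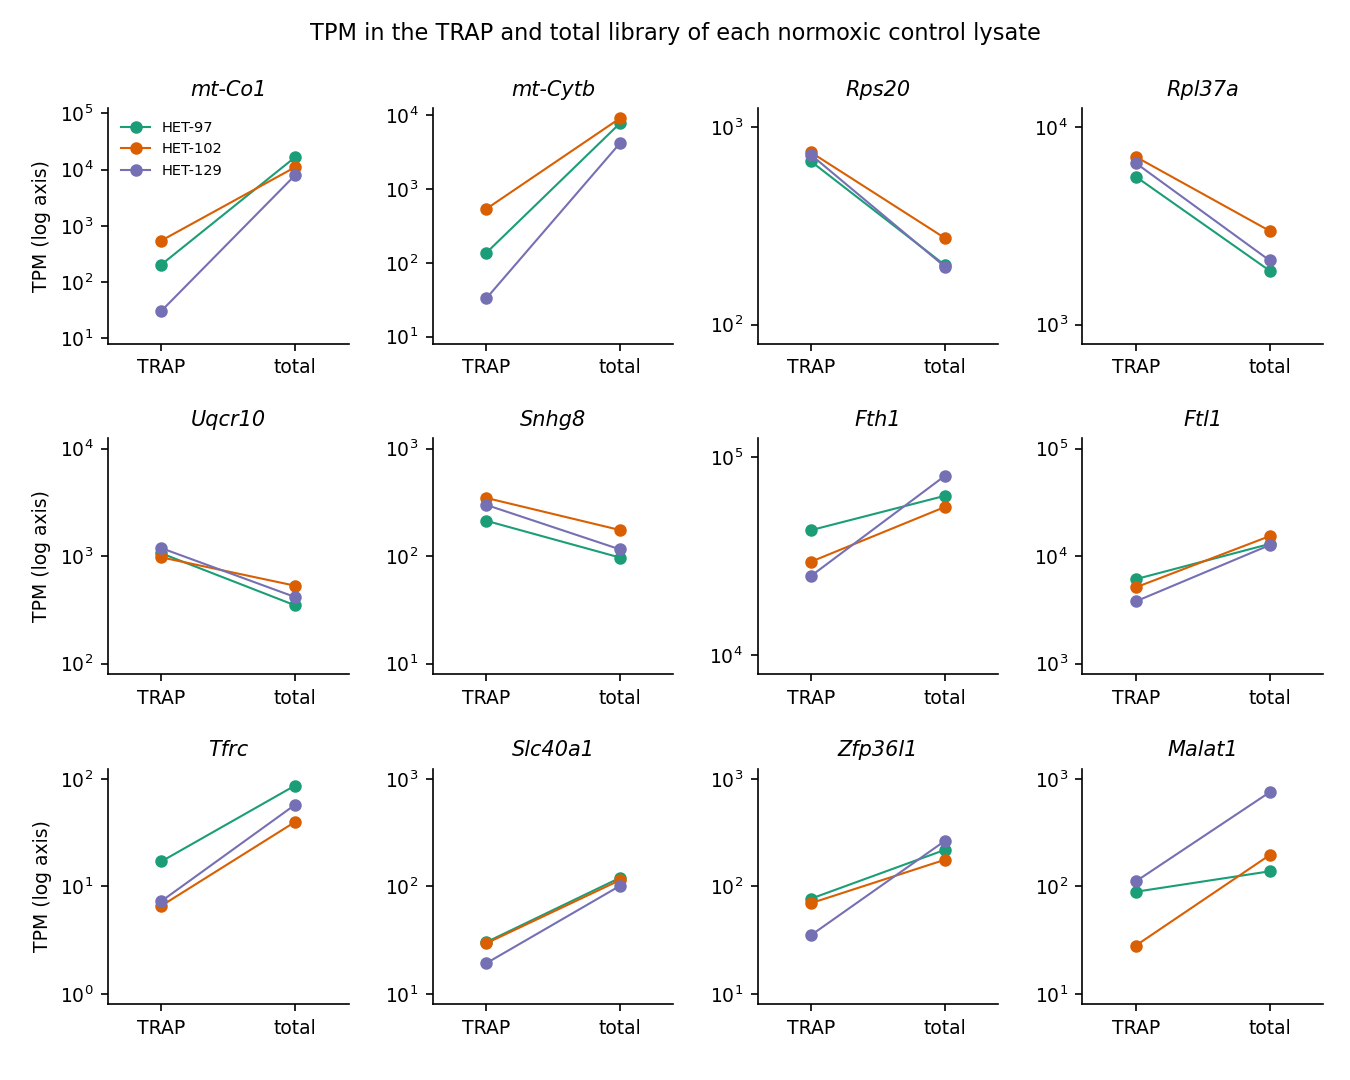
TPM (log axes) of 12 genes in the TRAP library (left of each panel) and the total RNA library (right) of the same normoxic control lysate, 1 line per mouse. The lines of mt-Co1, mt-Cytb, Fth1, Ftl1, Tfrc, Slc40a1, Zfp36l1 and Malat1 lie lower in TRAP RNA, and those of Rps20, Rpl37a, Uqcr10 and Snhg8 lie higher.

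Cytokine and chemokine genes were mixed. Of 43 listed 32 passed the filter, and on the deposited scale 4 were higher and 10 lower. Relative to the median gene 11 were higher and 1 was lower, but without HET-129 only 4 were higher (12.5%, against 12.9% of all genes) and none lower. Leaving out HET-129 gave 3 higher and 3 lower on the deposited scale. Vegfa, a growth factor of blood vessels, had 72.9, 55.4 and 40.5 TPM in TRAP RNA and 197, 152 and 159 TPM in total RNA, with no overlap (-1.60 ± 0.25, adjusted p = 0.000351). Tnf had 31.8, 22.5 and 36.8 TPM in TRAP RNA and 45.3, 48.8 and 112 TPM in total RNA (-1.05 ± 0.31, adjusted p = 0.0122), a call lost without HET-102, without HET-129 and relative to the median gene (adjusted p = 0.266). Mif, the macrophage migration inhibitory factor, had 985, 888 and 1164 TPM in TRAP RNA and 557, 668 and 559.6 TPM in total RNA (0.76 ± 0.16, adjusted p = 0.0017). Ccl5, the gene in which HET-129 stood apart, differed by 0.54 ± 0.14 (adjusted p = 0.00689). Mif and Ccl5 were chosen after their values were seen.

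Macrophage markers moved in both directions as well. On the deposited scale 3 of 20 genes were higher (15%, against 5.88% of all genes) and 11 lower (55%, against 52.8%). Against the median gene, 7 were higher (35%, against 20.4% of all genes) and 4 lower (20%, against 17.1%). Without HET-129 the relative counts were 7 and 2, and 2 were higher and 8 lower on the deposited scale. Mertk, a receptor for the uptake of dead cells, had 20.4, 12.6 and 1.22 TPM in TRAP RNA and 47.1, 50.4 and 52.3 TPM in total RNA (-2.56 ± 0.47, adjusted p = 0.000849), with the lowest TRAP value in HET-129. The mannose receptor Mrc1 and the surface receptor Adgre1 (F4/80) differed by -1.31 and -1.28. The short signalling adaptor genes stood on the other side. Fcer1g had 4894, 5649 and 9509.7 TPM in TRAP RNA and 3280.3, 4720.3 and 6598 TPM in total RNA, higher within each lysate (0.45 ± 0.10, adjusted p = 0.00268). Tyrobp had 5928, 4119 and 2503 TPM in TRAP RNA and 3101, 2820.0 and 2707 TPM in total RNA, higher in HET-97 and HET-102 and lower in HET-129 (0.46 ± 0.18, adjusted p = 0.0465). Fcer1g and Tyrobp were chosen after their values were seen.

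Genes of the translation apparatus other than ribosomal proteins did not move as 1 group. Of 53 translation factors, 5 were higher and 21 lower on the deposited scale, and 22 were higher and 7 lower relative to the median gene (16 and 7 without HET-129). Without HET-129, 3 were higher and 18 lower on the deposited scale. Eif4g2, a scaffold of initiation, had 92.8, 71.4 and 30.8 TPM in TRAP RNA and 305, 158 and 168 TPM in total RNA (-1.75 ± 0.19, adjusted p = 7.35e-05). The ribosome recycling factor Abce1 had 22.9, 18.4 and 12.8 TPM in TRAP RNA and 61.8, 48.3 and 51.9 TPM in total RNA (-1.56 ± 0.16, adjusted p = 6.78e-05). Of 22 stress-response genes with upstream reading frames, 10 were lower and none higher on the deposited scale, and 5 were higher and 2 lower relative to the median gene. The phosphatase subunit gene Ppp1r15b differed by -1.60 and Cebpg by -1.15. Of 30 histone genes tested out of 79 listed, 7 were higher and 5 lower on the deposited scale, and 12 were higher and 1 lower relative to the median gene (11 and 0 without HET-129). Hist2h4 had 1.60, 7.32 and 6.44 TPM in TRAP RNA and 0.458, 2.75 and 0.522 TPM in total RNA (1.43 ± 0.29, adjusted p = 0.00175). Hist2h2be and Hist2h3c1 were lower on the deposited scale, with differences of -1.37 and -1.47. What part of each histone mRNA is held by libraries of polyadenylated RNA was not tested.

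Lists of organelle and metabolic genes held members called in both directions against the median gene, where 20.4% of all genes were higher and 17.1% lower. Shares higher and lower were 18.9% and 24.5% for lysosomal, 16.7% and 20.8% for cholesterol synthesis and 17.4% and 13.0% for glycolysis genes. They were 29.8% and 14.9% for endoplasmic reticulum chaperone and translocon genes, and 52.6% and 21.1% for selenoprotein genes. Of 53 lysosomal genes 43 were lower and 1 higher on the deposited scale, but relative to the median gene 10 were higher and 13 lower (4 and 8 without HET-129), with a median of -0.01. The lysosomal sulfatase gene Ids had 9.75, 5.85 and 1.99 TPM in TRAP RNA and 44.5, 32.6 and 37.2 TPM in total RNA (-2.68 ± 0.29, adjusted p = 7.69e-05). The lysosomal acid lipase gene Lipa had 343, 233 and 121 TPM in TRAP RNA and 852, 575 and 529.7 TPM in total RNA (-1.58 ± 0.14, adjusted p = 4.89e-05). Of 24 cholesterol synthesis genes 16 were lower and none higher on the deposited scale, and 4 were higher and 5 lower relative to the median gene (1 and 4 without HET-129). Leaving out HET-129 gave 10 lower on the deposited scale. Hmgcs1, an early enzyme of that pathway, had 42.5, 23 and 2.74 TPM in TRAP RNA and 98.3, 55.8 and 69.4 TPM in total RNA (-2.22 ± 0.44, adjusted p = 0.00148). Of 23 glycolysis genes 16 were lower and none higher on the deposited scale, and 4 were higher and 3 lower relative to the median gene (1 and 1 without HET-129). Pdk1, an inhibitor of pyruvate dehydrogenase, differed by -2.05 ± 0.41 (adjusted p = 0.00149). Of 47 genes of endoplasmic reticulum chaperones and the translocon, 7 were higher and 21 lower on the deposited scale, and 14 were higher and 7 lower relative to the median gene. Of 19 selenoprotein genes, 3 were higher and 10 lower on the deposited scale, and 10 were higher and 4 lower relative to the median gene (9 and 2 without HET-129). The deiodinase gene Dio2 had 3.10, 5.04 and 2.66 TPM in TRAP RNA and 14.8, 21.4 and 16.7 TPM in total RNA (-2.04 ± 0.20, adjusted p = 6.02e-05).

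Zinc finger genes, the longest list, had a median of -0.35 relative to the median gene. Of 282 tested, 196 were lower on the deposited scale (69.5%, against 52.8% of all genes) and 3 were higher. Relative to the median gene 66 were lower (23.4%, against 17.1% of all genes) and 17 higher. Without HET-129, 25 were lower (8.87%, against 8.95% of all genes) and 9 higher relative to the median gene, and 142 were lower and none higher on the deposited scale. Zfp281 had 1.84, 2.07 and 4.19 TPM in TRAP RNA and 13.0, 10.9 and 24.2 TPM in total RNA (-2.17 ± 0.27, adjusted p = 0.000127). Of 67 splicing factors 39 were lower and 1 higher on the deposited scale, and 12 were lower and 7 higher relative to the median gene (5 and 3 without HET-129). Ptbp3, a pyrimidine-tract binding protein, had 19, 20.8 and 4.33 TPM in TRAP RNA and 80.6, 67.5 and 78.4 TPM in total RNA (-2.53 ± 0.38, adjusted p = 0.000276). Of 44 proteasome genes 4 were higher and 9 lower on the deposited scale, and 28 were higher and 2 lower relative to the median gene (18 and 2 without HET-129). Without HET-129, none were higher and 9 lower on the deposited scale. The activator Psme4 differed by -1.43 ± 0.15. Of 48 cell cycle genes 25 were lower and 1 higher on the deposited scale, and 9 were higher and 4 lower relative to the median gene (4 and 3 without HET-129). The proliferation marker Mki67 had 11.6, 20.7 and 1.26 TPM in TRAP RNA and 37.2, 47.9 and 3.54 TPM in total RNA (-1.26 ± 0.19, adjusted p = 0.000334), lowest in HET-129 in both fractions. Of 17 MHC genes 6 were lower and none higher on the deposited scale, and 8 were higher and 1 lower relative to the median gene (5 and 1 without HET-129).

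Transcript length moved with the difference across all nuclear protein-coding genes. Over 10247 genes with a length in the GENCODE M21 annotation, Spearman's rho between transcript length and the relative difference was -0.64, and -0.69, -0.62 and -0.45 in HET-97, HET-102 and HET-129. For the coding length and for the length of the 3′ untranslated region it was -0.50 each. These are descriptions across genes of the same 6 libraries. Genes were split into 10 length classes of equal size. In the shortest class (234 to 1192 bases) the median relative difference was 0.90, and 769 genes were higher and 6 lower. In the longest class (6238 to 40378 bases) the median was -0.62, and 13 genes were higher and 469 lower. Genes short in both the coding part and the 3′ untranslated region had a median of 0.53 (2774 genes), and genes long in both had -0.51 (2770 genes). Genes with a short coding part and a long 3′ untranslated region had -0.14 (2351 genes), and those with a long coding part and a short 3′ untranslated region had -0.06 (2352 genes). The splits lay at 1317 coding bases and 985 bases of 3′ untranslated region.

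The gene lists differ in length, and each gene was therefore also read against the median of its own length class. Cytosolic ribosomal proteins, with a median transcript of 878 bases, stood 0.70 above their classes, and 81 of 83 lay above. Respiratory chain genes, with a median of 875 bases, stood 0.30 above, and mitochondrial ribosomal proteins 0.28 above. The proteasome list stood 0.02 above its classes. Iron genes, with a median of 3601 bases, stood 0.92 below their classes. Immediate early genes stood 0.24 below and zinc finger genes 0.08 below.

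**Figure D4:**
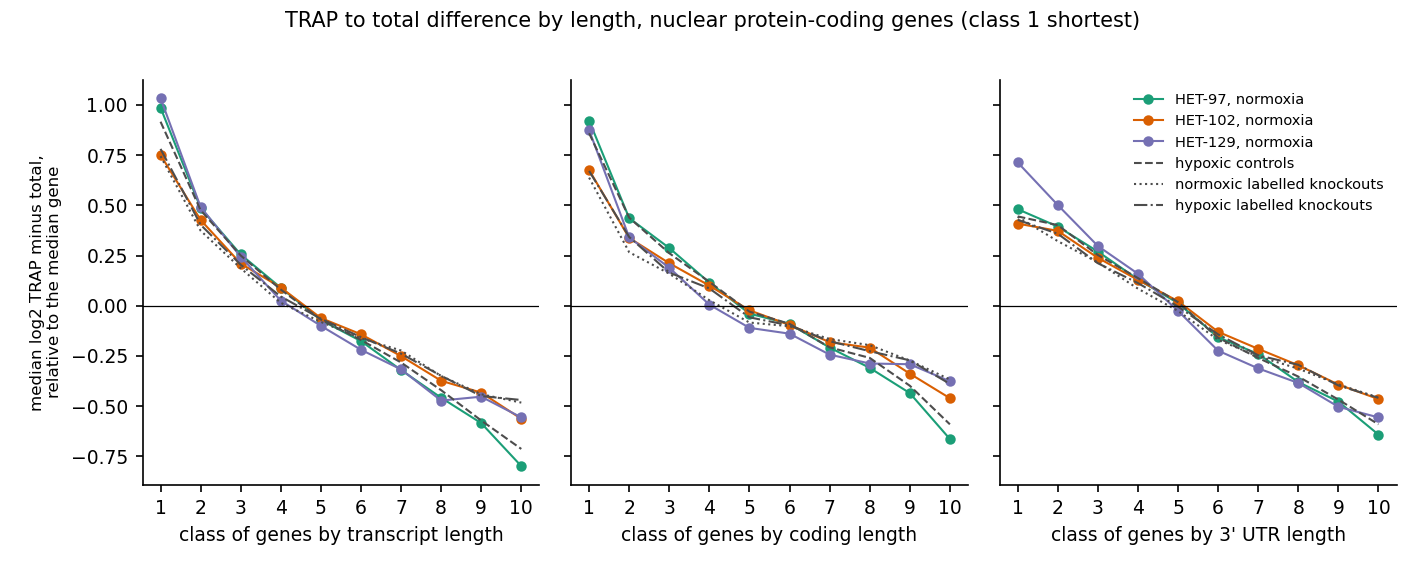
Median log2 difference, TRAP minus total RNA and relative to the median gene (vertical), of nuclear protein-coding genes in 10 classes of increasing transcript length, coding length and 3′ untranslated region length (horizontal, class 1 shortest), for each normoxic control mouse (points) and for each of the other 3 conditions (broken lines). The medians fall from the shortest to the longest class in every line, to between -0.80 and -0.47 for the longest transcripts.

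Some single genes with extreme values are uncertain. Adnp, a homeodomain transcription factor gene, is listed at 0 in all 3 TRAP libraries, against 32.3, 26.1 and 23.5 TPM in total RNA. An overlapping read-through gene on the same strand, Gm20716, has 21.8, 18.2 and 17.1 TPM in TRAP RNA and 0 in total RNA. The sums of both genes differed by only -0.55, -0.49 and -0.43 in the 3 mice. C5ar1, the receptor for complement C5a, had 378, 265 and 219 TPM in TRAP RNA and 92.7, 57.8 and 86.7 TPM in total RNA (1.84 ± 0.74, adjusted p = 0.049). In hypoxic control mice C5ar1 had 25.9, 203 and 221 TPM in TRAP RNA and 499, 390.0 and 479 TPM in total RNA, the opposite order, and the normoxic call was lost when any one of the 3 control mice or KO-176 was left out. Cdc26, a subunit of the anaphase-promoting complex, had 14.9, 54.6 and 37.5 TPM in TRAP RNA and 9.81, 10.2 and 9.70 TPM in total RNA (1.57 ± 0.51, adjusted p = 0.0193), a call lost without HET-102 and without HET-129. Srp14, of the signal recognition particle, had 413, 390.5 and 354 TPM in TRAP RNA and 141, 141 and 121 TPM in total RNA (1.52 ± 0.41, adjusted p = 0.00784), while total RNA of the hypoxic HET-129 lysate held 327 TPM. Of the 113 genes named by rule, 25 overlap another gene on the same strand and 43 on the opposite strand, and how the counting treated such reads is not given in the sources used here.

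The difference between the fractions was then compared with that in the other conditions, with the difference of differences tested in the same fit. Against the same control mice under hypoxia, no gene of 11410 passed (0%) by limma, and 278 had an unadjusted p under 0.05. Cytosolic ribosomal proteins had a median of 1.51 relative to the median gene in normoxic controls and 1.36 in hypoxic controls. Respiratory chain genes had 1.10 and 1.18, iron genes -0.61 and -0.75, and mitochondrial protein-coding genes -4.0 and -5.45. Against normoxic mice labelled knockout, 1 gene passed (0.00876%), and 406 had an unadjusted p under 0.05. The same lists had medians of 1.51 and 1.24, 1.10 and 0.94, -0.61 and -0.47, and -4.0 and -4.46 in normoxic controls and normoxic mice labelled knockout. These comparisons share the normoxic control libraries. The median standard error of a single gene's difference of differences was 0.328, against 0.232 for its TRAP to total difference. A difference that did not pass is not shown to be absent.

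The gene that passed was Slc25a36, a mitochondrial carrier of pyrimidine nucleotides (chromosome 9, 97074961 to 97111157, minus strand). In normoxic controls it had 9.70, 7.56 and 4.41 TPM in TRAP RNA and 28.4, 27.3 and 27.8 TPM in total RNA. In normoxic mice labelled knockout it had 0.29, 0.33 and 0.14 TPM in TRAP RNA and 24.6, 29.3 and 21.6 TPM in total RNA. The total RNA values overlapped between the genotypes and the TRAP values did not. The TRAP to total difference was -1.87 ± 0.22 in controls and -4.38 in mice labelled knockout, a difference of 2.51 ± 0.31 (adjusted p = 0.0454). The call was lost without HET-102, without KO-301 and without the lysate block.

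**Figure D5:**
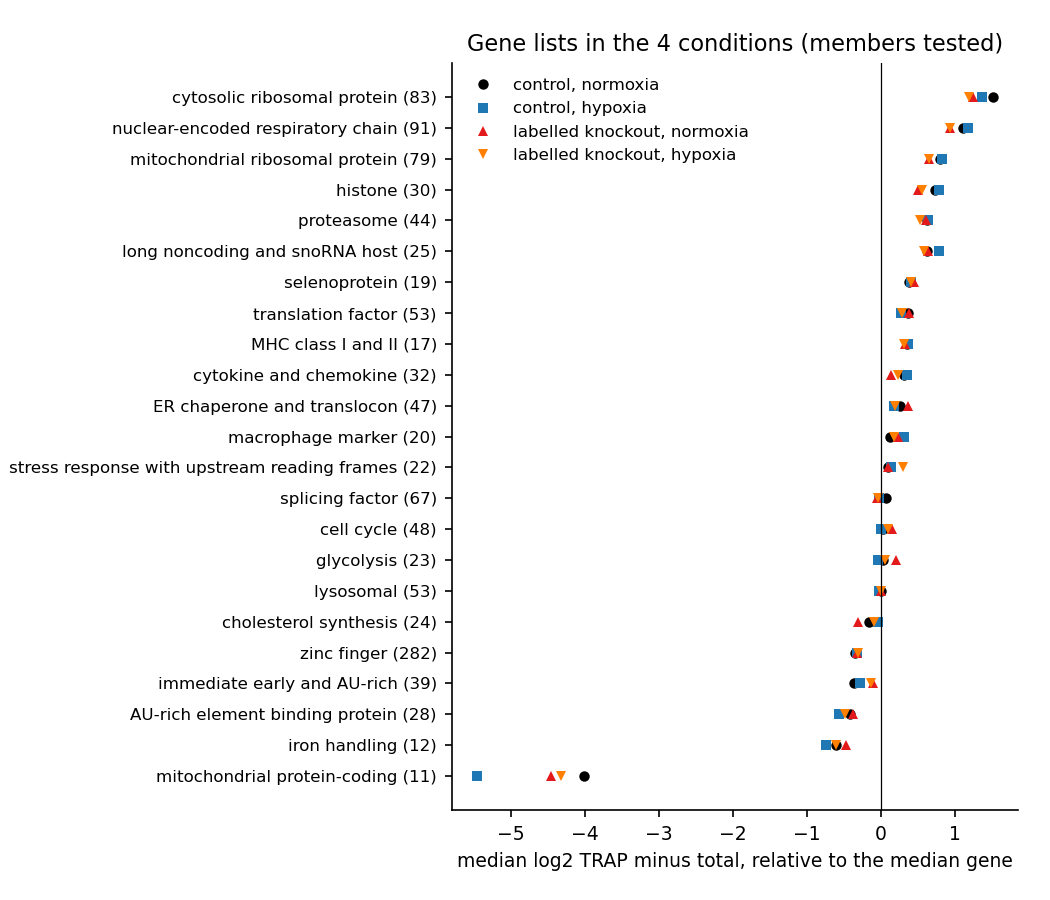
Median log2 difference, TRAP minus total RNA and relative to the median gene, of the tested members of 23 gene lists (rows, with the number tested) in the 4 conditions, n = 3 mice each. The cytosolic ribosomal protein median lies between 1.19 and 1.51 in all 4 conditions and the iron median between -0.75 and -0.47.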

How the data were processed

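Polyadenylated RNA libraries were made from TRAP and total RNA of 12 lysates (6 mice at 2 oxygen levels). The authors deposited a TPM table for each fraction, and the submitters' processing notes name HISAT and GRCm38, with no versions. TPM keeps no depth, so the depth per library is unknown. How the authors counted multi-mapping or stranded reads is not given in the sources used here.

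Here log2(TPM + 1) of genes at 1 TPM or more in at least 3 of the 6 libraries was fitted with limma 3.58.1 in R 4.3.3 (trended prior) over 24 libraries, with lysate as a block and 1 TRAP effect per condition. Each TRAP and total library pair came from 1 lysate. Within normoxic controls, same-lysate deviations correlated at 0.401 to 0.483. Tests were two-sided, with Benjamini-Hochberg adjustment over 11410 genes and a threshold of 0.05. For a second fit, the median TRAP minus total difference of each lysate was subtracted from its TRAP library. This gave the values relative to the median gene. The mice are separate animals. TRAP and total RNA values stand in separate tables, so any processing difference between tables cannot be told apart from the fraction. The script was tested on simulated data of 11410 genes, where only 100 were changed by 2 log2 units and 100 by 1. Of these, 84 and 51 were found, with 5 false calls. In the simulated fit to the 6 libraries alone, with the mouse as a block, none of either 100 were found, and there were 0 false calls. On the deposited scale far more genes were called, with 671 higher and 6026 lower. From the 6 libraries with the block, 465 were higher and 5102 lower. Recovery with so many changed genes was not tested. Transcript lengths are of 1 transcript per gene in GENCODE M21.

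The members and gene lists were chosen with earlier results of these data known. Genes are named by rule: Elavl1 and Rpl10a, the 12 largest differences in each direction (mean of 4 TPM or more, same direction in 3 lysates, predicted genes and pseudogenes not named), and up to 4 per list. Alternatives are given at the end.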

Additional observations from a re-analysis of the deposited data

Results flagged for a closer look

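Slc25a36 is listed because its TRAP to total difference in normoxia differed between controls and mice labelled knockout by the test of that difference itself (2.51 ± 0.31 on the log2 scale, adjusted p = 0.0454 by limma). Its TRAP values were lower than its total RNA values in 3 of 3 lysates of both groups. Under hypoxia, it had 7.47, 0.19 and 5.21 TPM in TRAP RNA and 25.4, 1.62 and 21.6 TPM in total RNA of KO-176, KO-281 and KO-301, and 8.18, 7.73 and 6.64 TPM in TRAP RNA and 26.6, 23.5 and 32.6 TPM in total RNA of the controls. An antisense gene, Gm16185, overlaps it on the opposite strand, and its part in the result was not tested.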

How the results depend on the processing

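The precision is limited by 3 mice per group, and the read depth is unknown. On the deposited scale the main counts were 671 genes higher and 6026 lower in TRAP RNA. They were 320 and 4010 with no lysate (replicate) block, 231 and 2735 from the 6 libraries with no replicate block, 2046 and 1900 after quantile normalization, 2323 and 1956 centred on the median gene, and 1118 higher after each library was rescaled to its nuclear protein-coding genes, with ribosomal protein genes left out of that total. Leaving out 1 mouse at a time gave 427 to 677 higher and 4436 to 6127 lower. The count of genes whose difference depended on oxygen ranged from 0 to 1 (1 without HET-97), and that for genotype from 0 to 3 (0 without HET-102 or KO-301, 3 without KO-281). The genotype count was also 0 with no replicate block, with a pseudocount of 5, with no filter and without HET-129 and KO-301 together. With the mouse as a block, the oxygen count stayed at 0, with 407 genes at an unadjusted p under 0.05. The TRAP minus total difference in share of all TPM ranged from -3.66 to -3.01 percentage points for mitochondrial DNA and from 11.6 to 12.5 for cytosolic ribosomal proteins with 1 mouse left out. As a percentage of that reduced total, the differences were -4.22 and 22.3. Of the 113 named genes, 2 changed sign when centred on the median gene (Cd4 to 0.014, H2-Q4 to 0.12) and 25 lost their call. After quantile normalization 2 changed sign (Cd4 to 0.089, Itgax to 0.10) and 26 lost their call. With no replicate block 25 lost their call and none changed sign. The cause of these changes was not tested. Alternatives that leave out HET-129 in the centred fit, sum Adnp with its overlapping gene, or use length classes were chosen after seeing the data.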
